A study of Mus musculus with 6 samples.

Results

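The genes of the mouse major histocompatibility complex (MHC) and their antigen processing partners were described in hippocampal RNA of mice 24 hours after cerebral ischemia and reperfusion. All genes whose symbol starts with H2- were taken, together with B2m, Cd74, Ciita, Nlrc5, Tap1, Tap2, Tapbp, Psmb8, Psmb9 and Erap1, which gave 55 of the 55471 genes in the authors' deposited table. They comprise 32 class I genes and pseudogenes, 12 class II genes and pseudogenes, 7 genes that give class I its light chain and peptides, the class II chaperone Cd74, the transactivators Ciita and Nlrc5, and H2-Ke6, an enzyme gene that lies in the complex but encodes no MHC molecule.

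Class I molecules pair a heavy chain with the light chain B2m and display peptides from inside the cell to CD8+ T cells. The peptides are cut by the immunoproteasome (Psmb8, Psmb9), pumped into the endoplasmic reticulum by Tap1 and Tap2, trimmed by Erap1 and loaded with the help of tapasin (Tapbp). Class II molecules carry peptides from endocytosed protein to CD4+ T cells, are escorted by the invariant chain Cd74 and are loaded by H2-DM. In the healthy brain both classes are kept low, and microglia, border macrophages and dendritic cells can raise them after injury.

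Libraries were made from 3 samples of wild-type mice treated with Visudyne and 3 of wild-type mice treated with saline, and both groups had undergone the ischemia and reperfusion. Visudyne, which contains the light-activated drug verteporfin, served here to ablate lymphatic vessels of the meninges, and the comparison asks how the hippocampus differs with and without that treatment. Neither the strain nor the age of the mice is stated in the labels, which also do not say whether each sample is its own animal, so the p-values rest on a spread between samples that could be purely technical.

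The deposited table gives 1 comparison of the 2 groups without stating which of them stands on top of the ratio. The groups are therefore called the numerator group and the denominator group, and a positive log2 fold change means a higher level in the numerator group. That would be the Visudyne group if the treatments had been ordered alphabetically, which the files do not state. Reads per library were recovered from the mean counts for genes with a mean of at most 100, because each such mean is a whole-number combination of 6 steps, the worth of 1 read in each library. The 3 libraries of the numerator group, called num1, num2 and num3, had size factors of 1.197, 1.055 and 0.584, and those of the denominator group, called den1, den2 and den3, had 1.517, 1.223 and 0.754. The shallowest library is thus num3, with a size factor 2.597-fold below that of den1, the deepest. Of 12 markers of hippocampal neurons, Prox1 of dentate granule neurons is listed at 2333 normalized counts on average in the authors' deposited table. The list also holds genes of forebrain neurons at large, so it does not tell the hippocampus from neighbouring tissue.

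Of the 55 members, 13 had no read in any library, 42 had reads and 34 had an adjusted p. By the authors' deposited table, none of the 34 passed at an adjusted p of 0.05, against 0.328% of all 18603 tested genes, and none at 0.1, against 0.624%. The smallest adjusted p among them was 0.165, that of H2-T23. At an unadjusted p under 0.05 there were 5 members, 3 with a positive value (H2-T23, H2-T-ps and H2-Q2) and 2 with a negative value (Psmb8 and H2-DMa), beside 6.81% of all tested genes, 3.92% positive and 2.89% negative. Signs were split, 16 positive and 18 negative, as they were over all tested genes, of which 50.5% were positive. The log2 fold changes below were back-calculated from the authors' shrunken values and are given with their standard error. Their median was -0.01 over the members and 0.00 over all tested genes.

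**Figure D1:**
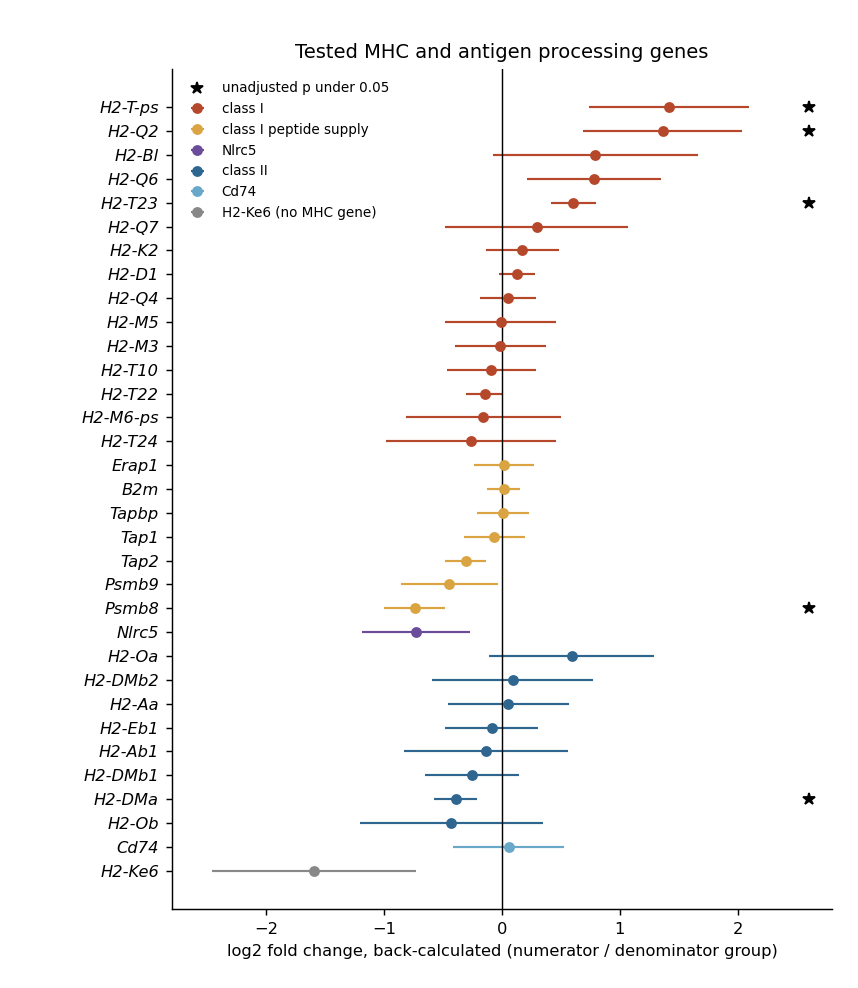
Log2 fold change of the 33 tested members with a back-calculated value, with bars for 1 standard error, numerator over denominator group, coloured by class. A star marks the 5 members with an unadjusted p under 0.05, and no member passed an adjusted p of 0.05.

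MHC promoters are known to be bound by RFX, CREB and NF-Y proteins and by factors of the interferon response, and they are shown for 5 members, credited to RefSeq on build GRCm38.p6 and given as the 250 bases before the annotated start, 5′ to 3′ on the gene's strand. H2-T23 and Psmb8 are shown as the members with the smallest p, Tap1 for the promoter it shares with Psmb9, and H2-Aa and H2-Eb1 for the class II promoter. Capitals mark matches on either strand to the interferon element (GAAA, any 2 bases, GAAA), the STAT element (TTC, any 3 bases, GAA), the NF-Y box CCAAT, the CREB site TGACG and the RFX box (AG, any 2 bases, AC, any 1 base, GATG). The motifs overlap within H2-Aa, where both matches of TGACG share bases.
H2-T23 (chr17:36032702-36032951, minus strand): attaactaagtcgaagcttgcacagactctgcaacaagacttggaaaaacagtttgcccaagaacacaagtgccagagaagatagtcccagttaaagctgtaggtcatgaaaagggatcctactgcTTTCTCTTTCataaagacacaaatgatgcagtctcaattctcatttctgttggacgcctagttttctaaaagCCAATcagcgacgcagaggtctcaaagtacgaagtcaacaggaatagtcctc
Tap1 (chr17:34187306-34187555, plus strand): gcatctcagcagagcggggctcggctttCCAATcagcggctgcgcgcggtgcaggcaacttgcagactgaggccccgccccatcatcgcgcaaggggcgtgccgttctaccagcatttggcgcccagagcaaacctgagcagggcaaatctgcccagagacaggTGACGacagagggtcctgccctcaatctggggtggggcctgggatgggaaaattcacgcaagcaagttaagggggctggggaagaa
Psmb8 (chr17:34197945-34198194, plus strand): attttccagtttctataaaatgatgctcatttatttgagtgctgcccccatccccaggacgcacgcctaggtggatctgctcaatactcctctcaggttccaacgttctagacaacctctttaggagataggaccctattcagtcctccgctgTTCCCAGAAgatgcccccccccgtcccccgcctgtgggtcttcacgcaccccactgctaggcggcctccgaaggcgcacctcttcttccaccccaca
H2-Aa (chr17:34287824-34288073, minus strand): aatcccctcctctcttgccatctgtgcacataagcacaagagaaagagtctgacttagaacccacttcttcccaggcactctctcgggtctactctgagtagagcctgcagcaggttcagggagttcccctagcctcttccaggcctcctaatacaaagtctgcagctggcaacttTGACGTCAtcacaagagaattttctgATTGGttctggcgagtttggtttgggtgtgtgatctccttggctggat
H2-Eb1 (chr17:34305617-34305866, plus strand): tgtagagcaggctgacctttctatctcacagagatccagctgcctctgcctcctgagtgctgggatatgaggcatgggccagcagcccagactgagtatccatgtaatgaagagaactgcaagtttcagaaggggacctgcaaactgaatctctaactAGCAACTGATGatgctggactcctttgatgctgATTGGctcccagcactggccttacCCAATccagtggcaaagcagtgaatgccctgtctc
A promoter was listed for 38 of the 55 members, 41 promoters in all. The CCAAT box stood in 35 of the 41, or 85.4%, against 33.8% of all 32851 promoters searched, and the CREB site in 16, or 39.0%, against 17.8%. The RFX box stood in 8 promoters, or 19.5%, against 0.816% of all promoters, 4 of them of class II genes (H2-DMb1, H2-Eb1, H2-Eb2 and H2-Oa) and 4 of H2-M10 genes. Many of these genes are copies of each other, so their promoters are not independent. The interferon element stood in 3 member promoters, or 7.32%, against 2.98% of all, those of H2-T23, H2-T22 and B2m. Their log2 fold changes were 0.61 ± 0.19, -0.15 ± 0.16 and 0.01 ± 0.14, so H2-T22 and B2m did not differ beyond their errors. In H2-T23 it covers bases -124 to -115 before the start, and in Psmb8 the STAT element covers bases -97 to -89. Psmb9 and Tap1 point away from each other with 225 bases between their starts, and their log2 fold changes were -0.44 ± 0.41 and -0.06 ± 0.26. A match of letters is a description and not a binding site, and the part of these elements in the fold changes was not tested.

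Class I heavy chains were the most abundant MHC transcripts. Per kilobase of exon, the classical genes H2-D1 and H2-K1, which present peptides on nearly all cells, had a mean of 443 and 240 normalized counts, next to 1978 for the light chain gene B2m. Neither heavy chain gene differed beyond its error. H2-D1 (ENSMUSG00000073411) had a log2 fold change of 0.13 ± 0.15 and B2m (ENSMUSG00000060802) 0.01 ± 0.14. For H2-K1 (ENSMUSG00000061232) the authors' deposited table gives a p of 0.978, and no back-calculated value could be solved.

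Nonclassical class I genes, which show little variation between individuals and are ligands of natural killer cell receptors or specialised T cells, gave the largest positive values. They also gave the most negative value among tested class I members, that of H2-T24 with -0.26 ± 0.72. Of the 5 tested genes with symbols that start with H2-T, 2 were positive and 3 negative, with a median of -0.09. H2-T23 (ENSMUSG00000067212) encodes the heavy chain of Qa-1, the ligand of the inhibitory receptor pair CD94 and NKG2A. Its log2 fold change was 0.61 ± 0.19, the authors' deposited table has a shrunken value of 0.44 ± 0.24 (p = 0.00153, adjusted p = 0.165), and its mean level was 90.8 normalized counts per kilobase. Its neighbour H2-T22, a ligand of some gamma-delta T cell receptors, had -0.15 ± 0.16, at 147 normalized counts per kilobase. H2-T10, a close relative of H2-T22 that GENCODE M21 annotates as a polymorphic pseudogene, had -0.09 ± 0.38. In the numerator group its 3 libraries had 33.4, 30.3 and 37.7 normalized reads, and in the denominator group 33.6, 37.6 and 35.8, so these 2 sets overlapped throughout.

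The pseudogene H2-T-ps (ENSMUSG00000073405) had 17.5, 13.3 and 15.4 normalized reads in the numerator libraries and 4.61, 6.54 and 6.63 in the denominator libraries. All 3 numerator libraries thus lay above all 3 denominator libraries, on 64 reads in all. Its log2 fold change was 1.42 ± 0.68, and the authors' deposited table gives an unadjusted p of 0.0372 (adjusted p = 0.662). H2-Bl, an annotated polymorphic pseudogene of the same stretch, had 0.79 ± 0.87 on 39 reads and overlapping groups.

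All 7 genes of the Q region with reads had a positive sign, of which 4 had an adjusted p and none passed it. H2-Q2 (ENSMUSG00000091705) had 20.9, 40.8 and 11.98 normalized reads in the numerator libraries and 9.23, 15.5 and 3.98 in the denominator libraries. Library den2 therefore lay above num3, and the groups overlapped. The log2 fold change of H2-Q2 was 1.36 ± 0.68 (unadjusted p = 0.0434, adjusted p = 0.7 in the authors' deposited table). Without single libraries its ratio on recovered reads ran between 0.78 and 1.89 on the log2 scale.

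H2-Q6 had 18.4, 18.0 and 18.8 normalized reads in the numerator libraries and 11.2, 8.18 and 13.3 in the denominator libraries. These groups did not overlap, and the log2 fold change was 0.78 ± 0.57 (adjusted p = 0.901 in the authors' deposited table). H2-Q7, like H2-Q6 a gene of the Qa-2 antigen, had 10.9, 9.48 and 8.56 normalized reads in the numerator libraries and 3.30, 8.18 and 13.3 in the denominator libraries, with a log2 fold change of 0.29 ± 0.78. H2-Q4, the most abundant Q gene per kilobase at 41.6 normalized counts, had 0.05 ± 0.24. H2-Q1 had 21 of its 36 reads in library num2, where it reached 19.9 normalized reads, against 5.01 and 1.71 in the other numerator libraries and 3.30, 1.64 and 1.33 in the denominator libraries.

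Summed over the 6 Q genes with recovered reads, the numerator libraries had 58.5, 91.0 and 49.6 normalized reads and the denominator libraries 28.3, 37.6 and 33.2. The sums do not overlap, which held for 13.5% of single tested genes with recovered reads, and no such share was computed for sums. H2-Q1, H2-Q5 and H2-Q10 among them had no adjusted p. In num2, H2-Q1 and H2-Q2 gave 19.9 and 40.8 of the 91.0 normalized reads. The sums also leave out H2-Q4, which was too abundant for reads to be recovered. It had a mean of 108 of the 157.7 normalized counts summed over the region. The genes are close copies of each other and are not independent. In GENCODE M21 transcripts, 10.8% of the 100-base windows of H2-Q6, 11.98% of those of H2-Q7 and 14.0% of those of H2-Q5 occur in another gene as well. For H2-Q1 and H2-Q2 the shares are 8.05% and 5.09%, and each has the other as its main partner. How the counting treated such reads is not stated, so the split of reads among these genes is uncertain. Reads of the lists of other cell types are given below, and their part in these values was not tested.

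**Figure D2:**
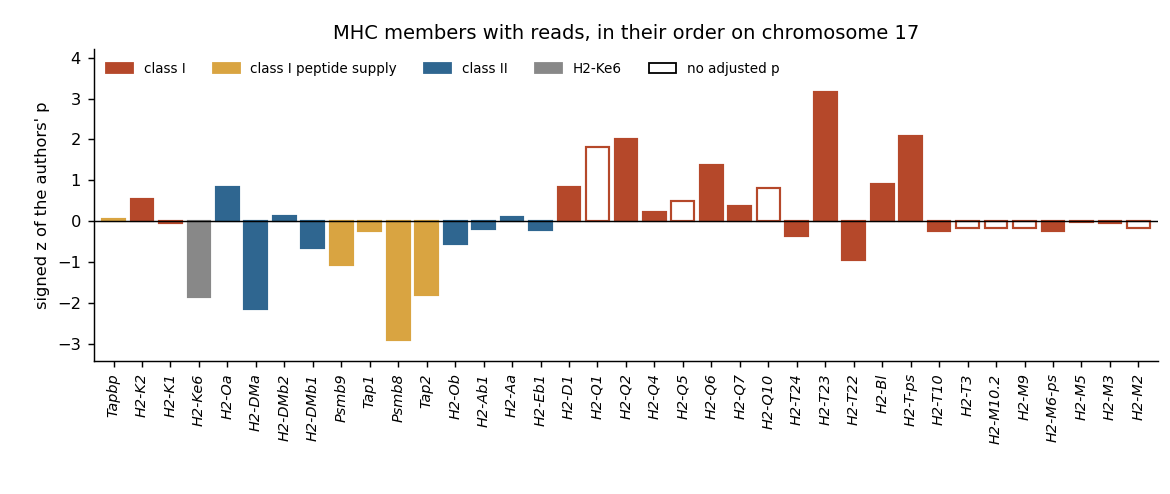
Signed z of the authors' p (vertical axis, sign of the deposited fold change) for the members on chromosome 17 that had reads, in their order along the chromosome, coloured by class, with open bars for genes without an adjusted p. From H2-D1 through H2-Q10 all 8 bars point up, while H2-DMa, Psmb8, Tap2 and H2-Ke6 reach furthest down and all M genes lie close to 0.

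Most genes of the M region had no or single reads, with H2-M3, H2-M5 and the pseudogene H2-M6-ps as the tested exceptions. H2-M3, which presents formylated peptides, had 42.6, 64.4 and 37.7 normalized reads in the numerator libraries and 58.0, 50.7 and 37.1 in the denominator libraries, with a log2 fold change of -0.01 ± 0.39. H2-M5 was similar in sum, at -0.01 ± 0.47, but spread more within the numerator group, with 53.5, 17.1 and 37.7 normalized reads there and 37.6, 39.2 and 31.8 in the denominator group. Of the other 12 M genes and pseudogenes, 8 had no read, H2-M2, H2-M9 and H2-M10.2 had 1 read each, and H2-M6-ps had 68 reads and a log2 fold change of -0.16 ± 0.66. The H2-M10 family is known in the mouse for its expression in vomeronasal sensory neurons.

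Of the 7 genes that feed class I molecules, 3 were positive and 4 negative, beside 50.5% positive over all tested genes. Their median log2 fold change was -0.06 and none passed the adjusted threshold. The immunoproteasome subunit gene Psmb8 (ENSMUSG00000024338), whose promoter with its STAT element is printed above, had the largest value, -0.74 ± 0.26. The authors' deposited table has a shrunken value of -0.45 ± 0.45 for Psmb8 (p = 0.00387, adjusted p = 0.269). Its partner subunit Psmb9 had 35.9, 25.6 and 18.8 normalized reads in the numerator libraries and 33.0, 38.4 and 41.1 in the denominator libraries. Library num1 lay within the range of the denominator group, and the log2 fold change of Psmb9 was -0.44 ± 0.41. The transporter subunits Tap2 and Tap1 had -0.31 ± 0.17 and -0.06 ± 0.26. Tapasin (Tapbp) at 0.01 ± 0.22 and the trimming peptidase Erap1 at 0.02 ± 0.25 lay at 0.

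Both transactivators were lower in every numerator library than in every denominator library, though Nlrc5 did not pass the adjusted threshold and Ciita had no adjusted p. Nlrc5, the transactivator of class I genes, had 14.2, 26.5 and 24.0 normalized reads in the numerator libraries and 27.03, 43.3 and 35.8 in the denominator libraries. The gap between num2 and den1 was small, the log2 fold change was -0.73 ± 0.46 (unadjusted p = 0.112, adjusted p = 0.851 in the authors' deposited table), and without single libraries it ran between -0.89 and -0.49. Ciita, the master transactivator of class II genes, had 21 reads in all. It reached 1.67, 1.90 and 1.71 normalized reads in the numerator libraries and 3.30, 6.54 and 3.98 in the denominator libraries. Its log2 fold change was -1.38 ± 1.21, with an unadjusted p of 0.254 in the authors' deposited table. Groups that do not overlap were common among all genes: this held for 13.5% of the 6152 tested genes with recovered reads, 7.53% with the numerator group higher and 5.97% with it lower. Of the 22 such members, H2-T-ps and H2-Q6 were higher and Nlrc5 was lower throughout. Ciita is not among the 22, and no share was computed for genes as scarce as it.

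**Figure D3:**
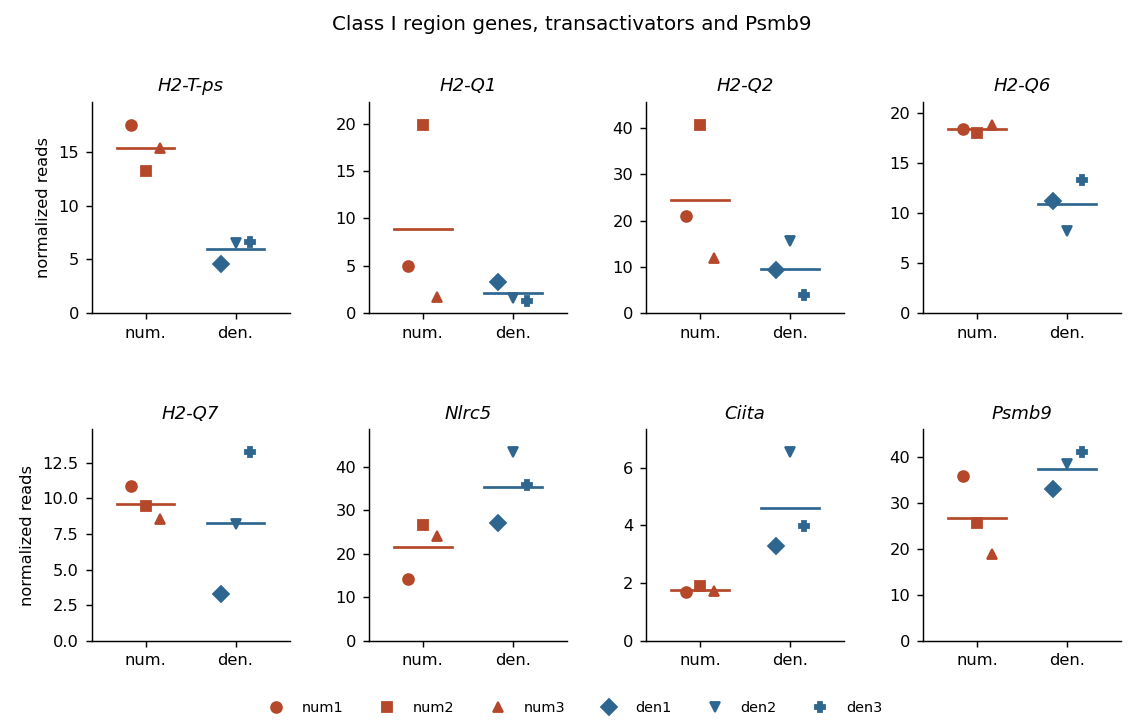
Normalized reads (vertical axes) in each of the 6 libraries for H2-T-ps, 4 Q genes, both transactivators and Psmb9, with the 3 libraries of the numerator group (num.) left of those of the denominator group (den.), 1 symbol per library and a line at the group mean. H2-T-ps and H2-Q6 lie higher and Nlrc5 and Ciita lower in all 3 numerator libraries, while H2-Q1, H2-Q2, H2-Q7 and Psmb9 overlap.

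Class II transcripts other than H2-DMa were scarce, and the groups overlapped in each of the 7 class II genes with recovered reads and in Cd74. Of 12 class II genes 4 (H2-Ea, H2-Eb2 and the pseudogenes H2-Pa and H2-Pb) had no read in the 6 libraries, and 8 were tested. An absence of reads still allows an expected count of up to about 3 over the 6 libraries together. Of the 8, 3 were positive and 5 negative, and the median log2 fold change with Cd74 included was -0.09. Cd74 had 61.8, 82.5 and 39.4 normalized reads in the numerator libraries and 44.2, 63.8 and 74.3 in the denominator libraries. The group means were 61.2 ± 21.5 and 60.7 ± 15.3 (SD, n = 3 each), and the log2 fold change of Cd74 was 0.06 ± 0.47.

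The chains of the presenting molecule I-A followed the same libraries. H2-Aa, the alpha chain, had 41.8, 46.4 and 18.8 normalized reads in the numerator libraries and 16.5, 38.4 and 51.7 in the denominator libraries. H2-Ab1, the beta chain, had 26.7, 37.0 and 5.14 normalized reads in the numerator libraries, the lowest from 3 reads, and 11.9, 18.0 and 49.1 in the denominator libraries. In Cd74, H2-Aa, H2-Ab1 and also H2-DMb1, num3 was the lowest numerator library, and den1 was the lowest and den3 the highest denominator library. The spread within each group was larger than the difference between them, with log2 fold changes of 0.06 ± 0.52 for H2-Aa and -0.14 ± 0.70 for H2-Ab1. H2-Eb1, the beta chain of I-E, had 44.3, 33.2 and 25.7 normalized reads in the numerator libraries and 29.7, 47.4 and 34.5 in the denominator libraries. Its partner gene H2-Ea, annotated as a polymorphic pseudogene in GENCODE M21, had none.

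Summed over Cd74 and the 7 class II genes with recovered reads, the numerator libraries had 255, 281 and 137 normalized reads and the denominator libraries 174, 242 and 293. The sign of the class II median rested on single libraries: the median over the recovered genes was -0.05, and it was 0.26 without num3 and 0.16 without den3.

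**Figure D4:**
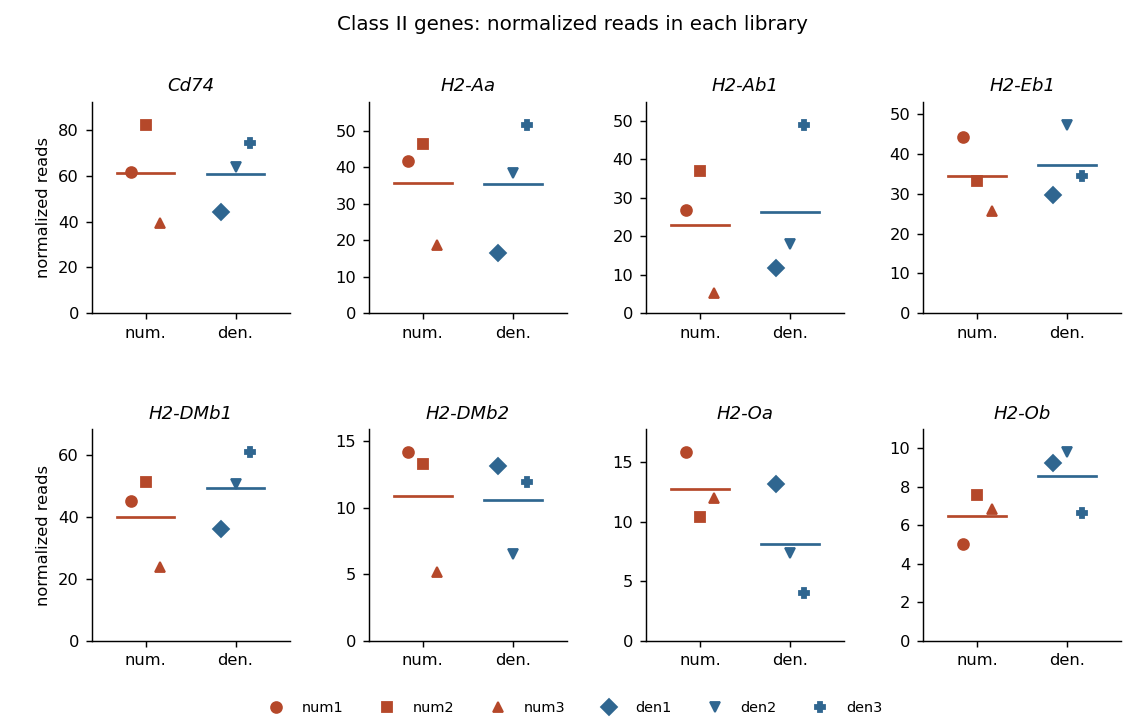
Normalized reads (vertical axes) of Cd74 and 7 class II genes in each library, with the numerator group (num.) left of the denominator group (den.), 1 symbol per library and a line at the group mean. In all 8 genes the groups overlap, and for Cd74, H2-Aa, H2-Ab1 and H2-DMb1 num3 is the lowest numerator library and den3 the highest denominator library.

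Of the genes of peptide exchange, H2-DMa was the most abundant. H2-DMa (ENSMUSG00000037649), the alpha chain of the peptide editor H2-DM, had 125 normalized counts per kilobase, against 26.6 for H2-DMb1 and 6.13 for H2-DMb2, its beta chains, and 9.38, 9.59 and 18.4 for H2-Aa, H2-Ab1 and H2-Eb1. H2-DMa was also the class II gene with the smallest p, with a log2 fold change of -0.39 ± 0.18 (p = 0.0326, adjusted p = 0.64 in the authors' deposited table). H2-DMb1 had 45.1, 51.2 and 24.0 normalized reads in the numerator libraries and 36.3, 50.7 and 61.0 in the denominator libraries, at -0.26 ± 0.40. H2-DMb2 had 0.09 ± 0.68. H2-DMb1 shares 11.3% of its 100-base windows with other genes, mainly with H2-DMb2, so reads may have been split between the beta chains. H2-Oa and H2-Ob, the chains of H2-O, which restrains H2-DM, had 0.59 ± 0.70 and -0.43 ± 0.77.

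Lists of other cell types were set beside these values. All 14 microglia markers were negative, with a list median of -0.41, beside 50.5% positive over all tested genes. The MHC members were split, 16 positive and 18 negative. By the authors' deposited table, the microglia markers Fcrls and Itgam passed the adjusted threshold (adjusted p = 0.00112 and 0.00282), beside 0.145% of all tested genes with a negative value. At an unadjusted p under 0.05 there were 9 negative microglia markers, beside 2.89% of all tested genes. In bulk tissue fewer cells of a type and less RNA per cell cannot be told apart, and the part of these cells in the MHC values was not tested. Over 11 of 12 markers of border macrophages and monocytes the numerator libraries had 195, 241 and 140 normalized reads and the denominator libraries 125, 164 and 166. These sums leave out Stab1, too abundant for recovery, with a mean of 359 of the 531 normalized counts summed over the list. Of the 7 tested genes of that list 5 were positive and 2 negative, from Cd163, a scavenger receptor of border macrophages, with 1.14 ± 0.52, to the monocyte receptor gene Ccr2 with -1.20 ± 0.83. Cd163, Lyve1 and F13a1 were higher in all 3 numerator libraries, beside 7.53% of tested genes with recovered reads. Over 7 of 9 dendritic cell markers the sums were 63.5, 54.0 and 54.8 in the numerator libraries and 46.8, 56.4 and 67.7 in the denominator libraries. They leave out Flt3 and Zbtb46, with means of 137 and 165 of the 359 normalized counts summed over that list, and so cover its scarce genes only. Over 12 markers of B and T lymphocytes they were 72.7, 112 and 47.9 in the numerator libraries and 33.0, 47.4 and 78.3 in the denominator libraries. Only 3 of these markers had an adjusted p. They were Trbc2, Trac and Cd4, with means of 25.2, 14.6 and 10.9 of the 65.2 normalized counts summed over the list. Trbc2 and Trac pointed opposite ways, and Cd4 alone gave 38.9 normalized reads in num2, so the lymphocyte sums rest on few genes. Within each group the border macrophage and lymphocyte sums kept the library order of the class II sums. All were highest in num2 and lowest in num3 of the numerator libraries, and highest in den3 and lowest in den1 of the denominator libraries. The dendritic cell sums had that order in the denominator libraries only, with num1 highest and num2 lowest in the numerator group. The part of these cells in the class II values was not tested. For 11 markers of endothelial cells, another source of class I transcripts, the median was -0.13 and none passed the adjusted threshold.

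Of the other genes of the pathway, none passed the adjusted threshold in the authors' deposited table. Among 10 tested genes of interferon-gamma signalling, which induces both MHC classes, 9 were negative and the median log2 fold change was -0.29, with 3 negative at an unadjusted p under 0.05, beside 2.89% of all tested genes. These were Socs3, a feedback inhibitor, with -0.89 ± 0.34, and the transcription factors Irf8 with -0.58 ± 0.25 and Irf1 with -0.46 ± 0.22. The cytokine gene Ifng had no read. The hippocampal neuron list had a like split, 9 of 12 negative with 3 negative at an unadjusted p under 0.05 and a median of -0.25. Of the 8 genes of the RFX, CREB and NF-Y complex that binds MHC promoters, 2 were positive and 6 negative, and Nfya had the smallest p, with -0.52 ± 0.16 (adjusted p = 0.171 in the authors' deposited table). Of 11 tested genes of class I assembly, 4 were positive and 7 negative, with values between -0.42 for the peptidase gene Npepps and 0.32 for the chaperone gene Canx. Of 10 genes of class II peptide supply 5 were positive, among them the protease gene Ctsl with 0.36 ± 0.17, and 5 negative, among them Ifi30, a thiol reductase of antigen processing, with -0.54 ± 0.30, and Ctss, which degrades the invariant chain, with -0.34 ± 0.19. Of 6 tested genes of T cell co-stimulation 3 were positive and 3 negative, and Icam1, an adhesion ligand, had the smallest p, with -0.61 ± 0.29.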

How the data were processed

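RNA of 6 hippocampal samples was sequenced as stranded mRNA libraries with 150 bp paired-end reads. The labels' protocols name fastp 0.20.0 for trimming, HISAT2 2.1.0 for alignment and featureCounts 2.0.1 for counting. The submitters' processing notes list DESeq2 1.28.0. Genome build, annotation and counting strand: not given in the sources used here. The deposited mean count is a signal, counts divided by size factors and averaged over the 6 libraries by the authors. In the deposited log2 fold change most values lie far closer to 0 than their p-values imply, so it was taken as shrunken. Each deposited p-value and adjusted p-value comes from the authors, with no adjusted p for genes whose mean is below 5.67.

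Whole reads were recovered for genes with a mean of at most 100 by finding every combination of reads in 6 libraries that matches the mean within 1e-14 (means under 10) or 7e-14, and a gene was used where 1 combination matched. That held for 18028 of 18143 genes, and no gene had no match. A match by chance is expected in 0.0176 cases at a mean of 50 and in 0.562 at a mean of 100. Genes with means above 50, among them Cd74, H2-K2 and Cd274, are therefore less certain than the rest. The side of each library is the sign of the deposited fold change of genes with 1 read in that library alone, the same for all such genes. Libraries cannot be tied to sample names. Counting error limits low values: genes with few reads have wide errors.

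The unshrunken fold change was solved from the deposited value, its error and p, with a normal likelihood and a Cauchy prior of scale 0.0357, an assumption inferred from the values. On 6138 tested genes it differed from the log2 ratio of recovered reads by a median of 0.0217. Both procedures were tested on simulated data. The count test planned in case counts per library were found was not run, since reads were recovered for part of the genes only, and the authors' test stands. Exact permutation of 3 against 3 libraries cannot give a p under 0.1 and was not used. Exon lengths and 100-base windows come from GENCODE M21, on GRCm38, which may not be the authors' annotation. Python 3.11.15, numpy 2.4.6, scipy 1.17.1, pandas 2.3.3, numba 0.67.0 and matplotlib 3.10.9 were used.

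Members, lists and tests were chosen with earlier results of these data known. Named were members with an unadjusted p under 0.05, all genes of the rule outside H2-, the main class I and II genes, up to 3 further genes per class by mean count and up to 3 genes per list by p. Other genes named (H2-Q1, H2-Q6, H2-Q7, H2-Bl, H2-T10, H2-M3, H2-M5, H2-DMb2, Ccr2, Lyve1, F13a1 and Clec10a among them) were chosen for their values, their copies or their role. One gene of the interferon-gamma list is not reported here by name.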

Additional observations from a re-analysis of the deposited data

How the results depend on the processing

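No member passed an adjusted p of 0.1, an adjustment over all genes with a p (smallest adjusted p 0.27), an adjustment restricted to means of 10 or more (0.154) or a test with z divided by its SD (0.386), and 5 members passed at an unadjusted p under 0.05. The median log2 fold change of class I members, 0.13, was 0.09 with a minimum mean of 10, 0.13 with 50, 0.00044 with the deposited shrunken values and 0.16 with recovered reads, a setting added after seeing the data. Libraries could be left out 1 at a time only over members with recovered reads, 11 of class I and 8 of class II with Cd74. Abundant members such as H2-D1, H2-T23 and H2-DMa are not among them. Over these members the class I median ran between 0.04 and 0.30. The median of class II with Cd74 ran between -0.29 and 0.26, so its sign depends on the library left out. H2-Ab1 reached 0.62 without den3 and -0.72 at the other end. The largest chance of a wrong read recovery lies at means near 100, and genes above that have no value per library. With the prior scale multiplied by 0.8 or 1.2, H2-T23 stayed at 0.61 and Psmb8 at -0.74, and the other named members could not be solved. Leaving out libraries with a test, other normalizations and other count models were not run. No paired analysis was possible because the recovered libraries cannot be tied to sample names and the labels give no numbers that pair samples.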

Other observations

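Of 12 genes for receptors of MHC molecules 6 were tested, 4 positive and 2 negative, and none passed the adjusted threshold. Trbc2, a constant segment of the T cell receptor beta chain, had 49.3, 36.0 and 25.7 normalized reads in the numerator libraries and 8.57, 10.6 and 21.2 in the denominator libraries, with a log2 fold change of 1.52 ± 0.51 (adjusted p = 0.236 in the authors' deposited table). Trac, the alpha chain segment, pointed the other way, with 6.68, 12.3 and 8.56 normalized reads in the numerator libraries and 14.5, 13.9 and 31.8 in the denominator libraries, at -1.11 ± 0.65. In both genes the groups do not overlap, which held for 13.5% of tested genes with recovered reads, and of the T cell markers Cd3d had 10 reads and Cd3e and Cd3g a single read each over the 6 libraries. Cd4, the coreceptor for class II, reached 38.9 normalized reads in num2 and 5.01 and 3.42 in num1 and num3, against 2.64, 8.99 and 6.63 in the denominator libraries. Clec10a, a lectin of dendritic cells and macrophages, was higher in all 3 numerator libraries, with 15.04, 17.1 and 25.7 normalized reads, against 7.25, 8.99 and 9.29 in the denominator libraries, at 1.18 ± 0.61 (adjusted p = 0.741 in the authors' deposited table). The same held for 7.53% of tested genes with recovered reads. Of the 5 tested dendritic cell markers, Clec10a included, 2 were positive and 3 negative, with a median log2 fold change of -0.13.

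H2-Ke6, which encodes a steroid and fatty acid dehydrogenase, had 12.5, 4.74 and 0 normalized reads in the numerator libraries and 8.57, 20.4 and 26.5 in the denominator libraries, with a log2 fold change of -1.59 ± 0.86 (adjusted p = 0.771 in the authors' deposited table). In GENCODE M21, 61.6% of its 100-base windows occur in another gene as well, mainly in Gm20427, and how the counting treated such reads is not stated. The checkpoint ligand gene Cd274 (PD-L1) had 40.9, 52.1 and 47.9 normalized reads in the numerator libraries and 54.1, 58.9 and 58.4 in the denominator libraries, groups that do not overlap, at -0.28 ± 0.32 (adjusted p = 0.961 in the authors' deposited table). The numerator group was lower throughout in 5.97% of tested genes with recovered reads.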
